A study of Mus musculus with 16 samples.

Results

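Matrix metalloproteinases (MMPs), the ADAMTS proteases, the ADAMTS-like (ADAMTSL) glycoproteins and the tissue inhibitors of metalloproteinases (TIMPs) were followed in mesenchymal stromal cells (mSC) of skeletal muscle, which lie between the fibres and make their matrix. The genes were taken by symbol from a table of 52997 genes, and 51 rows matched: 23 named Mmp, 19 Adamts, 5 Adamtsl and 4 Timp. At least 1 read was found for 50 of them, and 37 had at least 10 reads in 4 or more of the 16 libraries and were analysed. Of the 14 others, Mmp1b had no read, and Adamts13, Adamts18, Adamts20, Mmp1a, Mmp7, Mmp8, Mmp10, Mmp12, Mmp13, Mmp20, Mmp21, Mmp25 and Timp4 did not reach that number.

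Hindlimb skeletal muscle of 8-week-old C57BL/6 mice was the source of the cells. Mice received CGRP (calcitonin gene-related peptide, a neuropeptide of sensory nerves) or phosphate-buffered saline (PBS) into the peritoneal cavity, and cells were isolated 4 h or 8 h later, which gives the groups PBS 4 h, CGRP 4 h, PBS 8 h and CGRP 8 h with 4 replicates each. Each library was made from 1000 sorted cells. The sorting gate, the dose, the sex of the mice and the number of mice behind a replicate are not stated in the labels used here, so the p-values measure the spread between these samples.

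Total counts ran from 6373713 to 10011920 per library. Levels are given as CPM, which are counts scaled to the TMM-corrected size of each library, and levels of different genes are compared only as CPM per kb of merged exons. The 12 listed mSC markers summed to 142621 to 189771 CPM. Against this stood 4.75 to 9.59 CPM for 10 macrophage and myeloid markers, 0.146 to 3.26 for 8 neutrophil markers, 0 to 2.12 for 8 lymphocyte markers (Il7r at 0 in all libraries), 80.7 to 144 for 8 endothelial markers, 85.3 to 230.4 for 8 myofibre markers, 61.6 to 135 for 6 satellite cell markers (Myf5 at 0), 6.36 to 15.01 for 5 Schwann cell markers, 211 to 1303 for 5 tendon genes and 0.968 to 47.5 for 5 erythroid genes. Of all counts, Gm10800, a repeat-derived gene model, held between 1.77% and 2.45% in PBS 8 h replicates 1 to 3, and elsewhere between 0.536% and 1.01%. More genes were detected in PBS 4 h replicate 4, CGRP 4 h replicate 3 and PBS 8 h replicates 1 and 4 (23294 to 25579) than in the other libraries (21138 to 22341). In such bulk libraries, fewer cells of a type and less RNA per cell cannot be told apart.

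MMPs and ADAMTS proteases are zinc enzymes that cut components of the extracellular matrix. They are made as inactive precursors, and furin or other proteases remove the propeptide. Membrane-type MMPs stay at the cell surface, where MMP14 activates the precursor of MMP2 in a complex with TIMP2. ADAMTSL proteins share the thrombospondin repeats of the ADAMTS enzymes but lack the protease domain, and several bind fibrillin microfibrils. TIMPs bind the active site of the enzymes, and TIMP3, which is held in the matrix, also inhibits ADAM and ADAMTS proteases. Stromal cells are a main source of these proteins in muscle.

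Mmp2, which encodes gelatinase A, stood highest with 999 ± 100.3 CPM per kb (mean ± SD over the 16 libraries) and made up 77.9% to 89.6% of the summed MMP level in each library. It was followed by Timp2 (190.0 ± 24.2), Timp1 (182 ± 206), Mmp3 (91.5 ± 37.7), Timp3 (61.1 ± 8.76), Adamtsl4 (52.2 ± 6.29), Adamts5 (45.7 ± 8.51), Mmp23 (41.1 ± 10.9) and Adamts2 (39.8 ± 4.94). These means pool both treatments. Timp1 averaged 62.9 in PBS 4 h and 47.4 in PBS 8 h, below Mmp3 (111 and 51.7). In CGRP 4 h and CGRP 8 h Timp1 averaged 216 and 403. The spreads of neighbours in this order overlap from Timp2 downwards, whereas Mmp2 lay above all other members in every library. At the low end of the analysed genes, Adamts19 had 0.0878 ± 0.0520 and Adamts17 0.0967 ± 0.0735 CPM per kb.

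**Figure D1:**
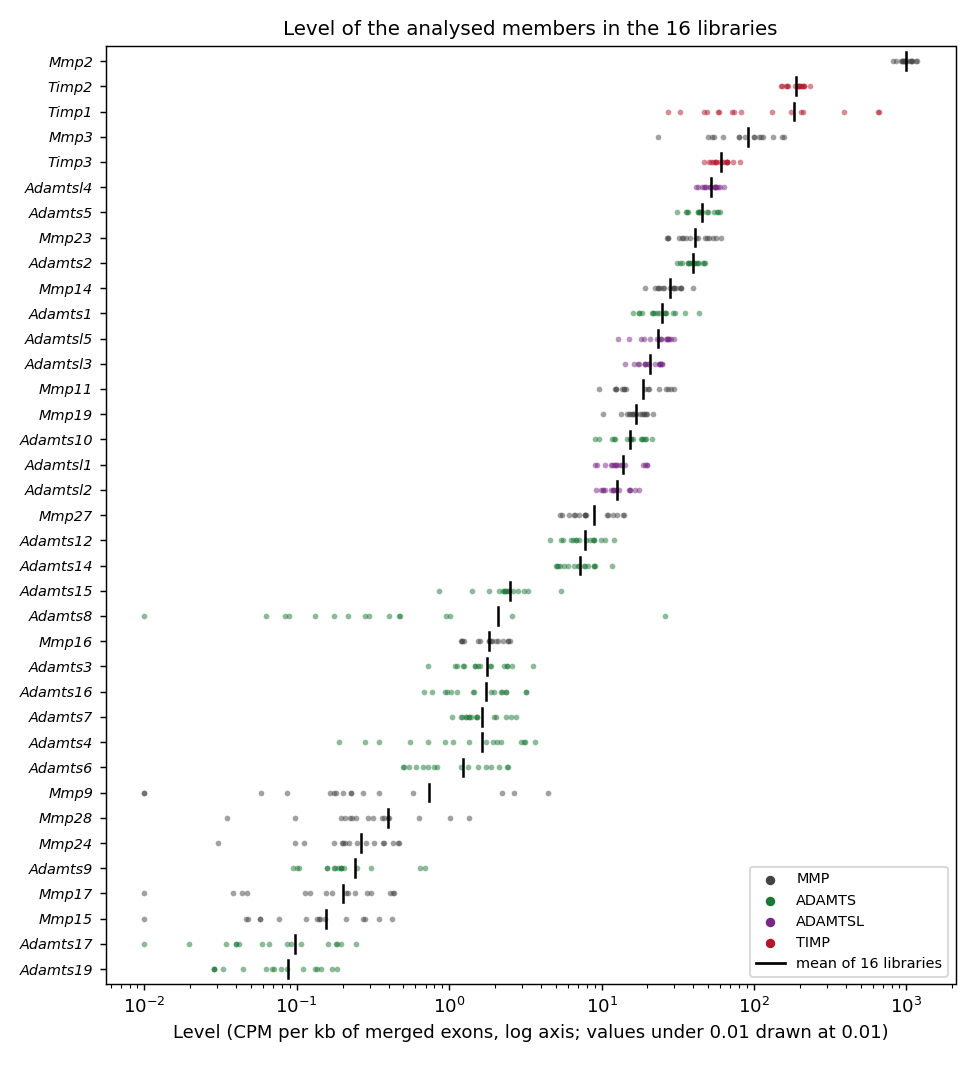
Level of the 37 analysed genes in CPM per kb of merged exons on a log axis, with 1 point per library and a line at the mean of the 16 libraries. Mmp2 lies highest in every library, at 999 CPM per kb on average.

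The position of the genes gives one shared feature that the choice by name did not use. On mouse chromosome 9 (mm10), 10 MMP genes lie between 7272514 and 7699585 in the order Mmp13, Mmp12, Mmp1b, Mmp3, Mmp1a, Mmp10, Mmp8, Mmp27, Mmp20 and Mmp7. Only Mmp3 and Mmp27 of these 10 passed the read minimum. The 250 bases before the start site, taken from RefSeq (GRCm38.p6, the assembly behind mm10), were searched on both strands for the AP-1 motif TGANTCA. AP-1 is the Fos and Jun dimer, a known activator of several MMP genes. A match was found in 8 of the 10 genes of the cluster and in 0 of the 26 other members with a promoter entry, against 6.75% of 32851 mouse promoters of this length. The TATA letters TATAAA were in 7 of the 10 and in 3 of the 26, against 12.4% of all promoters, and the GC box GGGCGG was in 0 of the 10 and in 20 of the 26, against 32.7%. A gene with several start sites was counted when any of them had a match. Members without a promoter entry were not searched, among them Mmp2, Mmp9, Mmp16, Mmp17 and Mmp19. A match describes letters and not a bound site. The 8 stretches are shown with the AP-1 letters in capitals and 12 bases on each side.
Mmp10 (chr9:7502267-7502297, forward strand): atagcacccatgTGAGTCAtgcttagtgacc
Mmp12 (chr9:7347318-7347348, forward strand): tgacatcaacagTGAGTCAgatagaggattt
Mmp13 (chr9:7272467-7272497, forward strand): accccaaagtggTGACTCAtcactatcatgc
Mmp1a (chr9:7464056-7464086, forward strand): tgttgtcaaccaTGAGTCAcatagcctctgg
Mmp1b (chr9:7388101-7388131, reverse strand): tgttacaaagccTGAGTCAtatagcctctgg
Mmp20 (chr9:7628124-7628154, forward strand): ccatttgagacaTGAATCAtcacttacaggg
Mmp3 (chr9:7445764-7445794, forward strand): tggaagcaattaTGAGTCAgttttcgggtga
Mmp7 (chr9:7692015-7692045, forward strand): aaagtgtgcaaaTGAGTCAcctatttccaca
Mmp3, which was well expressed, and Mmp10, Mmp12 and Mmp13, which did not reach the read minimum, carry the motif alike. No match lies in this window of Mmp27, which was expressed, or of Mmp8.

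At 4 h after injection, 7 of the 37 analysed genes differed between CGRP and PBS by edgeR's quasi-likelihood test (adjusted p under 0.05 over all genes tested, the rule behind "rose" and "fell"). Mmp11, Adamts6, Adamts9 and Adamtsl1 rose, and Adamts10, Adamtsl3 and Adamtsl5 fell. That is 18.9% of the analysed members, against 15.7% of the 14236 genes tested (7.99% higher and 7.72% lower), so the family as a whole stood near the background. The median log2 fold change was -0.10 over the members and 0.01 over all genes. The CGRP and PBS libraries did not overlap for 7 members, 3 higher and 4 lower, against 18.4% of all genes (9.19% higher and 9.23% lower). DESeq2 called 9 members, against 18.3% of all genes by the same tool. Without CGRP 4 h replicate 4 the calls over all genes went from 2237 to 1482, while the members called numbered 7 to 9 over all libraries left out in turn.

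At 8 h, 7 of 37 members were again called, which is 18.9%, against 8.39% of all genes (4.97% higher and 3.42% lower). Mmp11, Mmp14, Adamts4 and Timp1 rose, and Adamts3, Adamts10 and Timp2 fell. The median was -0.07 over the members and -0.01 over all genes. The groups did not overlap for 5 members, 2 higher and 3 lower, against 14.6% of all genes (8.1% higher and 6.5% lower). DESeq2 called 8 members, against 10.9% of all genes by the same tool. The count at 8 h depended on single libraries: it was 4 without PBS 8 h replicate 3, 2 without PBS 8 h replicate 4 and 4 without CGRP 8 h replicate 4, and over all genes it went from 1195 to 752 without PBS 8 h replicate 1, 687 without PBS 8 h replicate 4, 585 without CGRP 8 h replicate 1 and 664 without CGRP 8 h replicate 4.

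The 4 h and 8 h comparisons share no library. Mmp11 and Adamts10 were called at both times, each in the same direction. The fold changes of 30 of the 37 members (81.1%) had the same sign at both times, as had 63.2% of all genes. The difference between the effects at 8 h and 4 h was called for 0 of 37 members by edgeR and by DESeq2, against 1.03% of all genes by edgeR (0.618% higher and 0.407% lower) and 3.06% by DESeq2. At an unadjusted p under 0.05 it numbered 6 (Adamts3, Adamts8, Adamts9, Adamtsl1, Adamtsl5 and Mmp14), against 14.1% of all genes under that threshold. A gene called at only 1 of the times is therefore not shown to respond differently at the other.

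**Figure D2:**
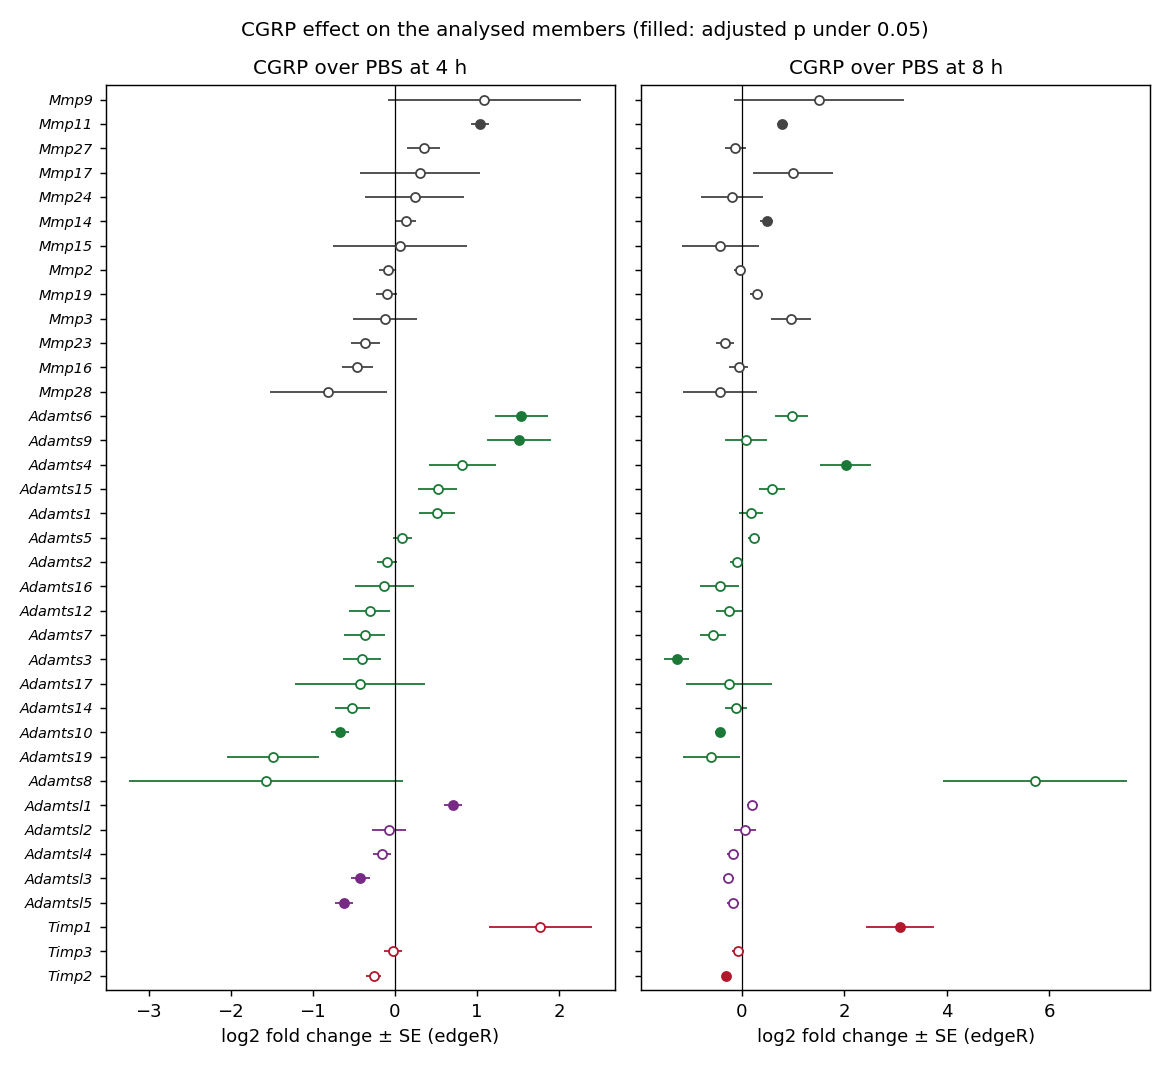
Log2 fold change of CGRP over PBS with its SE for the 37 analysed genes, at 4 h on the left and at 8 h on the right (the axes differ in range), coloured by family, filled where the adjusted p of edgeR was under 0.05. Mmp11 is filled on the right of 0 at both times and Adamts10 on the left of 0 at both times.

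Some markers of other cells and of mSC differed between the treatments. Of all genes, 7.72% were lower and 7.99% higher at 4 h, and 3.42% were lower and 4.97% higher at 8 h. No tested gene of the macrophage and myeloid, neutrophil, satellite cell or erythroid lists was called at either time, and no lymphocyte marker was tested. The 8 pericyte and smooth muscle markers summed to 71.3 to 136 CPM after PBS and 31.9 to 68.7 after CGRP, with 2 of 6 tested genes lower and 0 higher. At 8 h the sums were 115 to 172 and 100.3 to 133, with none of the 6 called. The mSC markers summed to 165488 to 189771 and 148151 to 156958 CPM at 4 h, where 5 of 12 were lower and 1 higher, and to 166036 to 178251 and 142621 to 160217 at 8 h, where 2 were lower and 1 higher. The Schwann cell markers summed to 9.24 to 13.9 and 6.36 to 9.76 CPM at 4 h, with 1 of 3 tested genes lower. The myofibre markers summed to 142 to 230.4 and 99.2 to 148 CPM at 8 h, with 1 of 7 tested genes lower. The endothelial markers summed to 109 to 131 CPM after PBS and 80.7 to 105 after CGRP at 8 h, without overlap, and to 80.8 to 144 and 94.7 to 117 at 4 h, and the 1 tested gene of this list was not called at either time. The tendon genes summed to 554 to 1258 and 211 to 741 CPM at 4 h and to 477 to 1039 and 778 to 1303 at 8 h, with overlapping libraries and a lower median after CGRP at 4 h and a higher one at 8 h, and none of the 4 tested genes was called. The part of these shifts in the results on the members was not tested.

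Among the secreted MMPs, Mmp11 rose at both times. It encodes stromelysin 3, which furin activates inside the cell, so that it is secreted in active form. At 4 h the levels were 34.5, 37.9, 39.9 and 39.2 CPM in the PBS libraries and 76.3, 82.8, 73.2 and 79.6 CPM in the CGRP libraries (replicates 1 to 4 in that order, here and below). At 8 h they were 34.0, 38.8, 34.6 and 26.8 CPM after PBS and 56.9, 65.7, 55.7 and 53.6 CPM after CGRP. Every CGRP library stood above every PBS library at each time, and the libraries within a group lay close together. The log2 fold change was 1.04 ± 0.11 (± SE, 2.06-fold, adjusted p = 1.29e-06 by edgeR) at 4 h and 0.79 ± 0.11 (1.73-fold, adjusted p = 1.28e-04) at 8 h. From 4 h to 8 h after CGRP the level fell by 0.43 ± 0.11 on the log2 scale (adjusted p = 0.015), again without overlap, whereas after PBS the change was -0.18 ± 0.11 (adjusted p = 0.543). Mmp11 lies at chr10:75923222-75936496 (mm10, reverse strand), and 155 bp (5.58%) of its exons overlap those of Chchd10 on the other strand, which this library kit does not separate. The 250 bases before its RefSeq start site, shown because it is the member called with the same direction at both times and under every alternative tried, hold 2 GC boxes and no match to TGACGTCA (the cAMP response element, found in 0 of 36 members and 1.55% of all promoters), to its shorter form TGACG or to TGANTCA. The start of the RefSeq transcript lies inside the GENCODE gene.
Mmp11 (chr10:75932503-75932752, reverse strand): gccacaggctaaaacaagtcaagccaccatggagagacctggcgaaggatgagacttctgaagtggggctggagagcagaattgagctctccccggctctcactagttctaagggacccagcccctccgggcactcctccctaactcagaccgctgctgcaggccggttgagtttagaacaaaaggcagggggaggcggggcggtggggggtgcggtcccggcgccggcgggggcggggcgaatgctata

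The other secreted MMPs were not called between CGRP and PBS, which leaves 1 of 8 analysed genes called at each time. This stands against 15.7% of all genes called at 4 h and 8.39% at 8 h. Mmp2 had 3606, 2867, 3566 and 3948 CPM after PBS and 2751, 3677, 3303 and 3399.5 after CGRP at 4 h. At 8 h it had 3179, 3874, 3304 and 3188 CPM after PBS and 3136, 3125, 3681 and 3257 CPM after CGRP. The 4 groups overlap throughout, with log2 fold changes of -0.09 ± 0.10 (adjusted p = 0.606) and -0.04 ± 0.10 (adjusted p = 0.88 by edgeR).

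Mmp3 encodes stromelysin 1, which cuts proteoglycans, fibronectin and basement membrane proteins and activates other MMPs. It had 145, 195, 282 and 181 CPM after PBS and 113, 240.3, 206 and 179 after CGRP at 4 h, and 97.7, 143, 89.7 and 42.0 CPM after PBS and 157, 95.6, 199 and 273 CPM after CGRP at 8 h. The PBS libraries at 8 h lay below those at 4 h. Of the CGRP libraries at 8 h, replicates 1, 3 and 4 lay within the range of the 4 h libraries. CGRP 8 h replicate 2 (95.6 CPM) lay below that range, and the groups at 8 h overlap. The log2 fold change was -0.12 ± 0.39 at 4 h (adjusted p = 0.884) and 0.96 ± 0.39 at 8 h (adjusted p = 0.169 by edgeR). Mmp23, whose product is anchored in the membrane before it is released by cleavage, had 118, 142, 126 and 111 CPM after PBS and 80.2, 133, 96.9 and 78.3 CPM after CGRP at 4 h and 88.8, 115, 83.3 and 75.5 CPM after PBS and 63.4, 64.0, 99.7 and 62.8 CPM after CGRP at 8 h. Its CGRP means were lower at both times, with overlapping libraries and log2 fold changes of -0.36 ± 0.18 and -0.32 ± 0.18 (adjusted p = 0.208 and 0.332 by edgeR). It was called at 4 h without CGRP 4 h replicate 2 (-0.55, adjusted p = 0.03) and with no filter on low counts (-0.36, adjusted p = 0.0302).

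Mmp27, the other expressed gene of the chromosome 9 cluster, had 14.7, 15.7, 24.4 and 30.7 CPM after PBS and 30.8, 27.9, 24.1 and 26.2 after CGRP at 4 h. At 8 h the values were 17.3, 14.6, 13.5 and 17.6 CPM after PBS and 17.2, 11.7, 12.2 and 17.1 CPM after CGRP. It fell between 4 h and 8 h after CGRP by 0.91 ± 0.20 on the log2 scale (adjusted p = 0.00622 by edgeR), without overlap. The same change after PBS was -0.44 ± 0.20 (adjusted p = 0.354), and the difference between the 2 was not called. Between CGRP and PBS the log2 fold change was 0.35 ± 0.20 at 4 h (adjusted p = 0.257), which was called only without PBS 4 h replicate 4 among the libraries left out (0.57, adjusted p = 0.0483), and -0.12 ± 0.21 at 8 h (adjusted p = 0.798). Mmp19 had means of 67.0 ± 8.32, 62.7 ± 6.83, 48.7 ± 9.86 and 59.5 ± 6.87 CPM in PBS 4 h, CGRP 4 h, PBS 8 h and CGRP 8 h, and 22.3% of its exons overlap those of Tmem198b on the other strand. Mmp9 and Mmp28 stayed under 16 CPM in every library.

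Of the 5 analysed membrane MMPs, 1 was called at 8 h and 0 at 4 h, against 8.39% and 15.7% of all genes. Mmp14, whose product activates the MMP2 precursor and cuts fibrillar collagen, had 140.3, 151, 152 and 182 CPM after PBS and 141, 197, 178 and 167 after CGRP at 4 h. Its levels at 8 h were 144, 179, 133 and 115 CPM after PBS and 197, 176, 236 and 195 CPM after CGRP. At 8 h, 3 of the CGRP libraries stood above all PBS libraries, and CGRP 8 h replicate 2 lay just under PBS 8 h replicate 2. The log2 fold change was 0.49 ± 0.13 at 8 h (1.41-fold, adjusted p = 0.017 by edgeR) and 0.13 ± 0.12 at 4 h (adjusted p = 0.563). The call at 8 h was lost without PBS 8 h replicate 3 (0.45, adjusted p = 0.0598) and without PBS 8 h replicate 4 (0.40, adjusted p = 0.0733).

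Mmp16, a further membrane-type MMP, had 16.5, 10.4, 21.7 and 13.9 CPM after PBS and 10.6, 10.5, 10.8 and 13.3 after CGRP at 4 h, and 21.0, 15.7, 16.4 and 20.9 CPM after PBS and 18.2, 19.5, 17.7 and 15.7 CPM after CGRP at 8 h. Both 8 h groups stood above every CGRP 4 h library, while PBS 4 h overlapped all other groups. From 4 h to 8 h after CGRP the gene rose by 0.66 ± 0.19 on the log2 scale (adjusted p = 0.035 by edgeR), a call that was lost on leaving out any one of 6 of the 8 CGRP libraries, all but CGRP 4 h replicate 4 and CGRP 8 h replicate 4 (0.61 to 0.66, adjusted p = 0.0693 to 0.1). CGRP against PBS gave -0.46 ± 0.19 at 4 h (adjusted p = 0.106; -0.63 with adjusted p = 0.0263 without PBS 4 h replicate 2) and -0.06 ± 0.18 at 8 h (adjusted p = 0.903). Mmp15, Mmp17 and Mmp24 stayed under 3 CPM in every library and were not called.

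The ADAMTS enzymes that cut versican, aggrecan and related proteoglycans had 6 analysed genes, of which 1 rose at each time and 0 fell. Of all genes, 7.99% rose at 4 h and 4.97% at 8 h. Their medians were 0.52 at 4 h and 0.42 at 8 h on the log2 scale, against 0.01 and -0.01 over all genes. The 8 h median includes Adamts8, whose uncalled value of 5.72 rests on CGRP 8 h replicate 3 with 1161 reads. The medians were -0.40 and -0.11 for the 3 procollagen ADAMTS genes and -0.37 and -0.42 for the 7 other analysed ADAMTS genes. Adamts4, known as aggrecanase 1, had 9.93, 6.50, 10.5 and 5.08 CPM after PBS and 14.9, 17.6, 8.40 and 15.1 after CGRP at 4 h. The values at 8 h were 1.65, 3.498, 0.910 and 1.34 CPM after PBS and 2.68, 9.36, 4.55 and 14.3 CPM after CGRP. The PBS libraries at 8 h were all below those at 4 h, and CGRP 8 h replicates 2 and 4 stood well above CGRP 8 h replicates 1 and 3, of which replicate 1 overlapped the PBS range. At 8 h the log2 fold change was 2.03 ± 0.50 (4.07-fold, adjusted p = 0.0176 by edgeR) and at 4 h 0.82 ± 0.41 (adjusted p = 0.207, or 0.0268 with no filter on low counts). The call was lost without PBS 8 h replicate 1, 3 or 4 or CGRP 8 h replicate 4 (1.57 to 1.97, adjusted p = 0.0509 to 0.0667). The change from 4 h to 8 h after PBS was -2.10 ± 0.50 (adjusted p = 0.0727).

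Adamts9, an enzyme that cuts versican, had 1.42, 2.68, 3.08 and 2.39 CPM after PBS and 2.93, 4.64, 10.4 and 9.68 after CGRP at 4 h. At 8 h it had 2.80, 2.62, 1.52 and 2.95 CPM after PBS and 2.37, 3.76, 1.55 and 2.93 CPM after CGRP. CGRP 4 h replicates 3 and 4 were the high libraries, and replicate 1 lay within the PBS range. The gene rose at 4 h by 1.51 ± 0.39 on the log2 scale (adjusted p = 0.01 by edgeR) and had 0.09 ± 0.41 at 8 h (adjusted p = 0.934). The 4 h call was lost without the 4 libraries with the most genes detected (1.22, adjusted p = 0.0966). It fell by 1.37 ± 0.39 from 4 h to 8 h after CGRP (adjusted p = 0.0317), a call lost without CGRP 4 h replicate 3 or 4 or CGRP 8 h replicate 1, 3 or 4 (-1.42 to -1.11, adjusted p = 0.051 to 0.117). At these levels the libraries held 10 to 83 reads, and 9.18% of the exons overlap A730049H05Rik on the other strand.

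Adamts5, known as aggrecanase 2 and the highest ADAMTS gene per length, had 588, 467, 626 and 466 CPM after PBS and 527, 649, 614 and 489 after CGRP at 4 h, and 399, 459.9, 392 and 338 CPM after PBS and 386, 477, 476 and 539 CPM after CGRP at 8 h. It was lower in all PBS libraries at 8 h than at 4 h, with -0.43 ± 0.12 on the log2 scale (adjusted p = 0.108 by edgeR). CGRP against PBS gave 0.09 ± 0.12 and 0.24 ± 0.12 (adjusted p = 0.704 and 0.246). Adamts1, which lies beside Adamts5 on chromosome 16 and is also a proteoglycan-cutting enzyme, had 187, 84.9, 116 and 93.2 CPM after PBS and 161, 139, 157 and 229 CPM after CGRP at 4 h and 114, 93.7, 97.4 and 139 CPM after PBS and 116, 125, 122 and 141 CPM after CGRP at 8 h. PBS 4 h replicate 1 was above 3 of the CGRP 4 h libraries, and the log2 fold change at 4 h was 0.51 ± 0.22 (adjusted p = 0.147 by edgeR), or 0.80 (adjusted p = 0.00358) without that library. At 8 h it was 0.18 ± 0.23 (adjusted p = 0.707).

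Of the 3 procollagen N-proteinases, which remove the amino-terminal propeptide of fibrillar collagens, 1 fell at 8 h and 0 were called at 4 h. The shares of all genes called were 8.39% at 8 h and 15.7% at 4 h. Adamts3, whose product is also known to process the lymphatic growth factor VEGF-C, had 8.65, 12.5, 8.34 and 13.0 CPM after PBS and 8.07, 6.10, 8.03 and 10.1 after CGRP at 4 h. Its levels at 8 h were 10.2, 13.0, 19.3 and 13.9 CPM after PBS and 3.92, 5.92, 6.72 and 6.78 CPM after CGRP. All CGRP libraries at 8 h lay below all PBS libraries, and at 4 h they overlap. The log2 fold change was -1.27 ± 0.24 at 8 h (adjusted p = 0.00229 by edgeR), that is 0.413 times the PBS level, and -0.40 ± 0.23 at 4 h (adjusted p = 0.275). Adamts2, the most abundant of the 3, had 376, 403, 356 and 431 CPM after PBS and 293, 401, 388 and 377 CPM after CGRP at 4 h and 350.1, 446, 344 and 368 CPM after PBS and 313, 345, 440.0 and 307 CPM after CGRP at 8 h, with log2 fold changes of -0.10 ± 0.12 and -0.10 ± 0.12 (adjusted p = 0.623 and 0.676 by edgeR). Adamts14 had -0.52 ± 0.21 and -0.11 ± 0.21 (adjusted p = 0.0994 and 0.826).

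Among the 7 other analysed ADAMTS genes, Adamts6 and Adamts10, which encode 2 close relatives linked to fibrillin microfibrils, moved in opposite directions at 4 h. Adamts10 had 155, 149.5, 120.5 and 132 CPM after PBS and 79.2, 97.2, 98.9 and 75.2 after CGRP at 4 h. The values at 8 h were 159, 161, 153 and 177 CPM after PBS and 128, 127, 129 and 102 CPM after CGRP. Every CGRP library was below every PBS library at each time. Adamts10 fell at 4 h by 0.67 ± 0.11 on the log2 scale (adjusted p = 1.66e-04 by edgeR) and at 8 h by 0.42 ± 0.10 (adjusted p = 0.0157), and after CGRP it rose from 4 h to 8 h by 0.47 ± 0.11 (adjusted p = 0.00694). The call at 8 h was lost without PBS 8 h replicate 4 (-0.38, adjusted p = 0.0565) and without CGRP 8 h replicate 4 (-0.34, adjusted p = 0.0666).

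Adamts6 had 6.52, 5.67, 5.26 and 4.25 CPM after PBS and 12.01, 18.9, 13.5 and 18.7 after CGRP at 4 h. At 8 h it had 9.29, 3.94, 6.22 and 3.89 CPM after PBS and 16.6, 10.4, 4.75 and 14.6 CPM after CGRP. The groups were apart at 4 h, and at 8 h CGRP 8 h replicate 3 lay within the PBS range while the other CGRP libraries stood above it. The gene rose at 4 h by 1.54 ± 0.32 on the log2 scale (2.91-fold, adjusted p = 0.00235 by edgeR). The log2 fold change at 8 h was 0.98 ± 0.32 (adjusted p = 0.0653), and it was called without CGRP 8 h replicate 3 (1.24, adjusted p = 0.00628), without PBS 8 h replicate 1 (1.30, adjusted p = 0.0305), with no filter on low counts (adjusted p = 0.0018) and by DESeq2 (adjusted p = 0.0302). Adamts7, Adamts12, Adamts16, Adamts17 and Adamts19 were not called at either time. Their log2 fold changes ran from -1.48 for Adamts19 at 4 h to -0.13 for Adamts16 at 4 h. Adamts17 and Adamts19 were low, with highest group means of 0.992 and 1.95 CPM, both in PBS 4 h.

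Of the 5 ADAMTSL genes, 1 rose and 2 fell at 4 h and 0 were called at 8 h. Over all genes, 15.7% were called at 4 h and 8.39% at 8 h. At an unadjusted p under 0.05 by edgeR, Adamtsl3 was the 1 ADAMTSL gene at 8 h, against 22.4% of all genes under that threshold, and DESeq2 called none of them there. Adamtsl1, also named punctin, had 148, 115, 169.7 and 174 CPM after PBS and 246, 255, 239.8 and 252 after CGRP at 4 h. The values at 8 h were 159, 135, 119.9 and 149 CPM after PBS and 153, 160.5, 157 and 181 CPM after CGRP. The CGRP 4 h libraries stood above those of every other group. The log2 fold change was 0.71 ± 0.11 at 4 h (adjusted p = 1.11e-04 by edgeR) and 0.21 ± 0.11 at 8 h (adjusted p = 0.257), and the level fell by 0.61 ± 0.11 from 4 h to 8 h after CGRP (adjusted p = 0.00101).

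Adamtsl5, whose product binds fibrillin, had the opposite course. Its levels were 115, 116, 113 and 129 CPM after PBS and 85.2, 90.0, 71.2 and 60.5 after CGRP at 4 h, and 136, 141, 125 and 127 CPM after PBS and 109.7, 131, 128 and 98.6 CPM after CGRP at 8 h. The CGRP 4 h libraries stood below those of every other group. Adamtsl5 fell at 4 h by 0.62 ± 0.11 on the log2 scale (adjusted p = 5.40e-04 by edgeR), had -0.17 ± 0.11 at 8 h (adjusted p = 0.384) and rose by 0.61 ± 0.11 from 4 h to 8 h after CGRP (adjusted p = 0.00133). The test of the difference between the CGRP effects at 8 h and 4 h gave 0.45 ± 0.16 for Adamtsl5 (adjusted p = 0.167) and -0.50 ± 0.15 for Adamtsl1 (adjusted p = 0.113), neither a call.

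Adamtsl3 had 183, 194, 149 and 187 CPM after PBS and 135, 137, 148 and 111 after CGRP at 4 h, and 188, 155, 193 and 188 CPM after PBS and 173, 157, 149 and 126 CPM after CGRP at 8 h. It was lower in all CGRP libraries at 4 h, where it fell by 0.42 ± 0.11 on the log2 scale (adjusted p = 0.00936 by edgeR), and at 8 h the groups overlap (-0.26 ± 0.11, adjusted p = 0.152). Adamtsl4, the most abundant ADAMTSL gene per length and another fibrillin-binding protein, had 266, 216, 215 and 237 CPM after PBS and 234, 231, 175 and 196 CPM after CGRP at 4 h and 244, 249.5, 192 and 234 CPM after PBS and 179, 203, 237 and 199.6 CPM after CGRP at 8 h. Its log2 fold changes were -0.16 ± 0.11 and -0.17 ± 0.11 (adjusted p = 0.37 and 0.397 by edgeR), and those of Adamtsl2, which binds fibrillin as well, were -0.07 ± 0.21 and 0.07 ± 0.21 (adjusted p = 0.87 and 0.904).

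**Figure D3:**
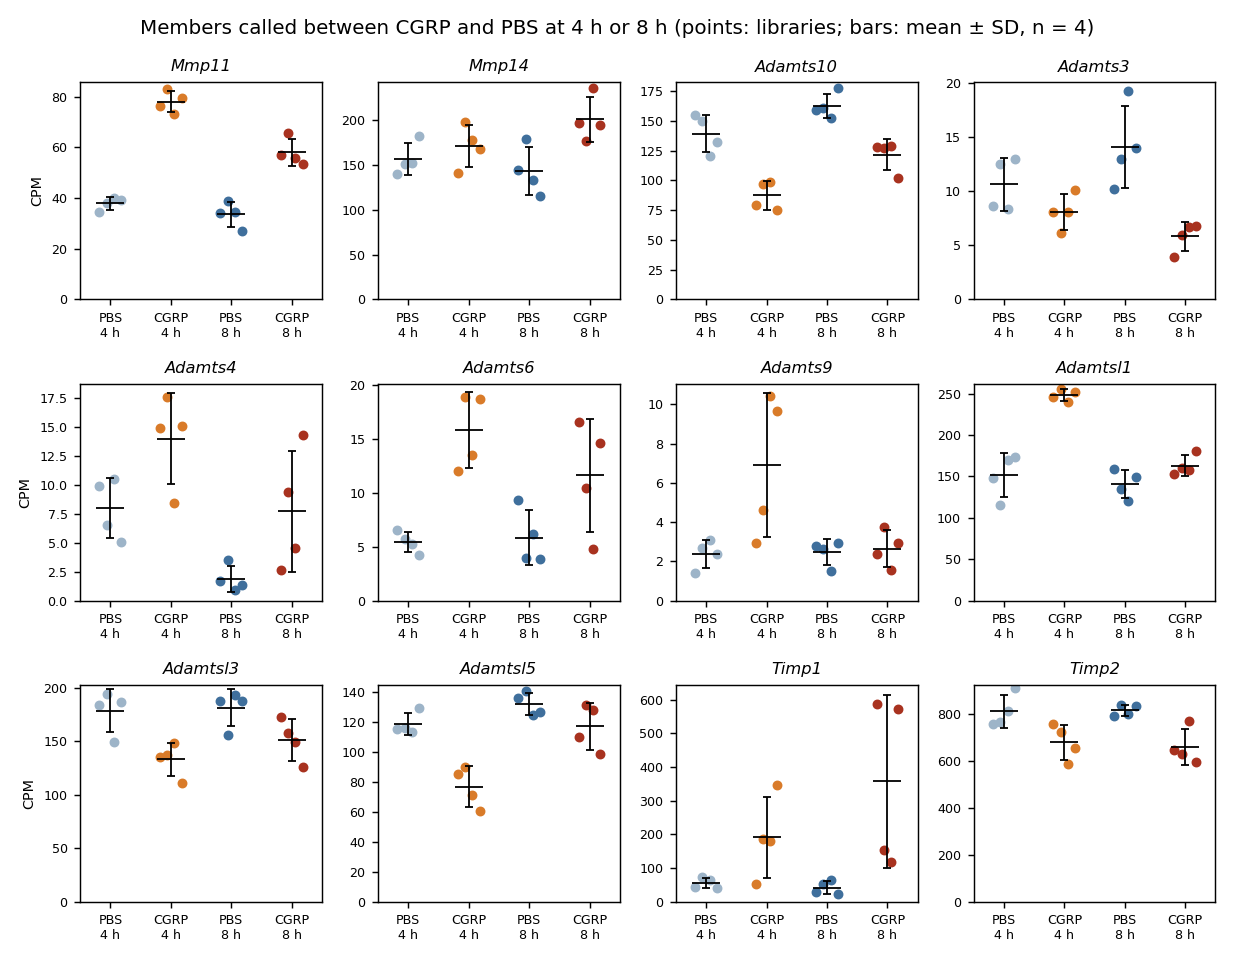
CPM of the 12 genes called between CGRP and PBS at 4 h or 8 h, with 1 point per library in the order of the replicates and the mean ± SD of each group (n = 4), each panel with its own axis from 0. The groups of Mmp11 are apart at both times, and the CGRP libraries of Timp1 spread from 52.4 to 587 CPM.

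At 8 h Timp1 rose and Timp2 fell. Timp1, which inhibits most secreted MMPs but membrane-type MMPs only weakly, had 43.5, 72.7, 65.4 and 41.9 CPM after PBS and 52.4, 187, 180.3 and 346 after CGRP at 4 h. At 8 h it had 29.003, 51.9, 63.3 and 24.1 CPM after PBS and 587, 154, 117 and 574 CPM after CGRP. Every CGRP library at 8 h stood above every PBS library, with replicates 1 and 4 far above replicates 2 and 3, and at 4 h CGRP 4 h replicate 1 lay within the PBS range. The group means were 55.9 ± 15.5 and 191 ± 120.4 CPM at 4 h and 42.1 ± 18.6 and 358 ± 257 CPM at 8 h (± SD, n = 4). Timp1 rose at 8 h by 3.09 ± 0.67 on the log2 scale (8.53-fold, adjusted p = 0.0147 by edgeR), and the call was lost without PBS 8 h replicate 4 (2.88, adjusted p = 0.0502) and in a fit of the 8 h libraries alone (adjusted p = 0.0504). At 4 h the value was 1.77 ± 0.63 (adjusted p = 0.0818), called without CGRP 4 h replicate 1 (2.09, adjusted p = 0.0398) and by DESeq2 (adjusted p = 0.0204). Timp1 lies at chrX:20870166-20874735 on the forward strand. The 250 bases before its start site, shown because it had the largest called fold change of the members, hold 1 match to TGACG (in capitals), which 17.8% of all promoters and 6 of the 36 members with an entry hold (Timp1 included), 1 GC box and no match to TGANTCA.
Timp1 (chrX:20869916-20870165, forward strand): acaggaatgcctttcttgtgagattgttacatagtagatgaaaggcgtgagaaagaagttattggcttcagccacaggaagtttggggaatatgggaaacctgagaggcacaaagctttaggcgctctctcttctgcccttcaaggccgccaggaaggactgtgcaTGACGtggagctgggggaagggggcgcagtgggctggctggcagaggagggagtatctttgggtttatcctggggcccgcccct

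Timp2, which is also the bridge between MMP14 and the MMP2 precursor, had 756, 765, 812 and 907 CPM after PBS and 754, 720.0, 584 and 653 after CGRP at 4 h. Its levels at 8 h were 789.9, 835, 797 and 834 CPM after PBS and 645, 627, 770.2 and 596 CPM after CGRP. All CGRP libraries were below all PBS libraries at each time, by a small margin. Timp2 fell at 8 h by 0.30 ± 0.09 on the log2 scale (0.811 times the PBS level, adjusted p = 0.0376 by edgeR), and at 4 h it had -0.26 ± 0.09 (adjusted p = 0.0549). Both values lie beside the threshold. The call at 8 h was lost with the replicate number as a block (adjusted p = 0.062) and on leaving out any one of the 8 h libraries except CGRP 8 h replicate 3 (-0.32 to -0.26, adjusted p = 0.0646 to 0.13). At 4 h the gene was called by DESeq2 (adjusted p = 0.0389), with upper-quartile scaling (0.0205), with filterByExpr (0.0471), with no filter (0.0459), without CGRP 4 h replicate 1 (0.0306) and without CGRP 8 h replicate 3 (0.0336).

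Timp3 had 461, 384, 516 and 489 CPM after PBS and 423, 415, 441 and 541 after CGRP at 4 h, and 543, 450.1, 539 and 659 CPM after PBS and 501, 593, 462 and 538 CPM after CGRP at 8 h. The groups overlap, with log2 fold changes of -0.02 ± 0.11 and -0.07 ± 0.11 (adjusted p = 0.929 and 0.802 by edgeR), and 21.3% of its exons overlap those of Syn3 on the other strand. Timp4 was under the read minimum, with 0.284, 0.413, 0.128 and 1.76 CPM in PBS 4 h, 0, 0.610, 0.125 and 0.269 in CGRP 4 h, 0, 0.292, 0 and 1.21 in PBS 8 h and 1.34, 0, 0.207 and 0 in CGRP 8 h. Summed over the 4 inhibitors, the level was 299.7 to 345 CPM per kb in PBS 4 h, 302 to 342 in PBS 8 h, 305 to 624 in CGRP 4 h and 386 to 888 in CGRP 8 h. Timp2 made up 59.8% to 68.4% of this sum in the PBS libraries and 17.7% to 51.2% in CGRP 8 h. The summed MMP level was 1091 to 1396 CPM per kb in PBS 4 h, 997 to 1381 in CGRP 4 h, 1056 to 1349.7 in PBS 8 h and 1085 to 1329 in CGRP 8 h, with overlapping ranges.

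Some members differed more between libraries of a group than between groups, and are described here after their values were seen. Adamts8, a neighbour of Adamts15 on chromosome 9, had 4.40, 0.413, 0.385 and 11.9 CPM in PBS 4 h, 0.605, 2.20, 1.00 and 2.15 in CGRP 4 h, 0, 0.292, 1.37 and 0.805 in PBS 8 h and 4.64, 1.29, 120.0 and 1.85 in CGRP 8 h. CGRP 8 h replicate 3 alone held 1161 of its reads, and its log2 fold change at 8 h, 5.72 ± 1.80, was not called (adjusted p = 0.0709 by edgeR). Mmp9, which encodes gelatinase B, an enzyme abundant in neutrophils, had 0.709, 9.49, 0.641 and 0.207 CPM in PBS 4 h, 0.807, 7.81, 15.7 and 0 in CGRP 4 h, 0, 0.583, 0.303 and 0.805 in PBS 8 h and 2.06, 0.968, 0.620 and 1.23 in CGRP 8 h. PBS 4 h replicate 2 and CGRP 4 h replicates 2 and 3 held most of its reads. The summed neutrophil markers were 0.413, 2.20 and 3.26 CPM in these libraries and 0.146 to 3.26 over all. CGRP 4 h replicate 3 had both the highest Mmp9 level and the highest marker sum. The 2 did not go together throughout: PBS 4 h replicate 4 had a sum of 2.59 CPM with Mmp9 at 0.207 CPM. PBS 4 h replicate 2 had a sum of 0.413 CPM with Mmp9 at 9.49 CPM. Mmp8, another neutrophil enzyme gene, had at most 5 reads in any library. The cell source of the Mmp9 reads was not tested.

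**Figure D4:**
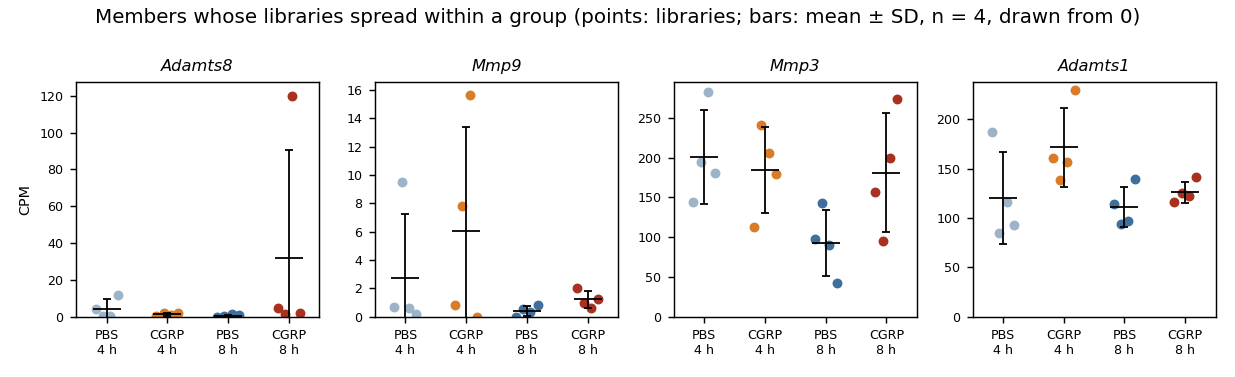
CPM of Adamts8, Mmp9, Mmp3 and Adamts1 by group, with 1 point per library and the mean ± SD (n = 4), with SD bars ending at 0 where they would pass below it. A single CGRP 8 h library at 120 CPM makes the CGRP 8 h mean of Adamts8, and 3 libraries at 4 h hold most of Mmp9.

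Time by itself was compared within each treatment. After PBS, 0 of 37 members were called by edgeR, against 0.499% of all genes (0.267% higher and 0.232% lower), 9 had an unadjusted p under 0.05, against 12.9% of all genes. DESeq2 called 2, Adamts4 and Adamts5, both lower at 8 h, against 2.3% of all genes. The PBS libraries of the 2 times did not overlap for 3 members, all lower at 8 h, against 7.32% of all genes (3.35% higher and 3.97% lower). After CGRP, 7 were called, 18.9% against 7.02% of all genes (4.11% higher and 2.91% lower). Adamts10, Adamtsl5 and Mmp16 were higher at 8 h, and Mmp11, Mmp27, Adamts9 and Adamtsl1 were lower. The CGRP libraries of the 2 times did not overlap for 6 members, 3 higher and 3 lower, against 12.2% of all genes (6.71% higher and 5.47% lower). Of these 7 calls, the 5 that had been called at 4 h between CGRP and PBS share the CGRP 4 h libraries with this comparison.

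Genes around these enzymes were counted from lists, to be read against the 15.7% of all genes called at 4 h and the 8.39% called at 8 h. Of 8 ADAM sheddase genes, 1 rose and 1 fell at 4 h, and 2 rose and 1 fell at 8 h. Adam33 fell at both times (-0.73 ± 0.10 and -0.61 ± 0.10 on the log2 scale), Adam9 rose at both (0.58 ± 0.11 and 0.36 ± 0.11), and Adam12 rose at 8 h (2.47 ± 0.45). Of 11 tested activators and regulators, 1 rose at 4 h, the proprotein convertase Pcsk5 (0.84 ± 0.22), and 4 rose and 1 fell at 8 h. Among these, Cav1, a component of caveolae (0.58 ± 0.12), the surface proteoglycan Sdc4 (0.87 ± 0.20) and the hyaluronan receptor Cd44 (1.01 ± 0.26) rose, and Lrp1, the receptor that clears several metalloproteinases and TIMPs from the cell surface (-0.24 ± 0.06), fell. Furin, which activates Mmp11 and the membrane-type MMPs, also rose. Of 14 tested substrate genes, 1 rose and 2 fell at each time: versican (Vcan, 0.60 ± 0.15 and 0.87 ± 0.15) rose, decorin (Dcn, -0.26 ± 0.08 and -0.25 ± 0.08) fell, and elastin (Eln, -0.79 ± 0.20) fell at 4 h and perlecan (Hspg2, -0.35 ± 0.11) at 8 h. These values compare CGRP with PBS on the log2 scale (± SE), each with an adjusted p under 0.05 by edgeR.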

How the data were processed

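The authors deposited raw counts of reads for each gene in each of the 16 libraries. The submitters' processing notes list STAR 2.5.4, featureCounts and the build mm10. Which annotation and strand setting were used, and how multi-mapping reads were handled, is not given in these notes. Per the labels' protocols, libraries were prepared with the Nextera XT kit, which does not mark strand, from 1000 sorted cells each.

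Counts were analysed with edgeR 4.0.16 and DESeq2 1.42.0 in R 4.3.3. All 14236 genes with at least 10 reads in 4 or more libraries were scaled with TMM and fitted in 1 quasi-likelihood model with 1 coefficient per group and robust dispersions (12 residual degrees of freedom). Tests of 5 contrasts were two-sided, with Benjamini-Hochberg adjustment across every tested gene and calls at 0.05. SE is the log2 fold change over the square root of F. The fit was tested on simulated data. Within groups, the chi-square of 24 library pairs was 6.52 to 22.7 times its degrees of freedom, far above sampling noise. All 16 libraries were therefore kept as separate samples. The chi-square cannot tell whether the samples of a group come from different mice. Same-numbered libraries did not deviate together (correlations -0.087 to 0.076 over 24 pairs), so numbers were not used as pairs.

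Positions and exon lengths came from GENCODE M21 (all 51 symbols matched), and promoters from RefSeq (36 members matched, with entries on chromosome 18 left out). Members, lists and alternatives were chosen with earlier results of these data known. Values in every library are given for the Timp genes, every member called in any contrast, and the 3 highest MMP, ADAMTS and ADAMTSL genes per length.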

Additional observations from a re-analysis of the deposited data

Results flagged for a closer look

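In 5 of the 92 sets of 4 libraries examined (23 genes in 4 groups), 1 library stood apart by Dixon's criterion, which chance alone reaches in about 1 of 20 sets. Adamts10 was at 102 CPM in CGRP 8 h replicate 4, against 127 to 129 in the other CGRP 8 h libraries. Adamtsl3 was at 155 CPM in PBS 8 h replicate 2, against 188 to 193. Mmp16 was at 13.3 CPM in CGRP 4 h replicate 4, against 10.5 to 10.8. Mmp23 was at 99.7 CPM in CGRP 8 h replicate 3, against 62.8 to 64.0. Timp4 was at 1.34 CPM in CGRP 8 h replicate 1, against 0 to 0.207, all under the read minimum.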

How the results depend on the processing

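No called fold change turned its direction under any alternative tried. With no filter on low counts, 50 members were tested rather than 37. Of these, 12 rather than 7 were called at 4 h, and 11 rather than 7 between 8 h and 4 h after CGRP. Over all genes this setting called slightly fewer than 2237 at 4 h and more than 999 between the times after CGRP. More than 14236 genes were then tested, so the shares of all genes called were below 15.7% and 7.02%. For 8 h against 4 h after PBS the members called were 2 with DESeq2, 5 with no filter and 1 with only the 2 groups compared, and the genes called were 327, 422 and 135 rather than 71. For the difference of effects the genes called were 435 with DESeq2 and 456 with no filter rather than 146. Without the 4 libraries with the most genes detected, which leaves 2 PBS 8 h libraries, the genes called at 8 h numbered 192, the members called 2 (Mmp11 and Adamts3), and the genes with a difference of effects 65. The cause was not tested.

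On leaving out each library in turn, the genes called were 1482 to 2245 at 4 h, 585 to 1288 at 8 h, 80 to 202 for the difference of effects, 17 to 278 between the times after PBS and 665 to 1012 between them after CGRP, and the members called 7 to 9, 2 to 8, 0 to 0, 0 to 3 and 5 to 7. Uncalled values near 0 changed sign: without the 4 libraries Adamts5 had -0.03 and Timp3 0.01 at 4 h, and Mmp16 0.14, Mmp27 0.04 and Timp3 0.08 at 8 h. With libraries left out in turn the ranges were -0.27 to 0.08 for Mmp3 and -0.12 to 0.02 for Timp3 at 4 h, and -0.14 to 0.28 for Adamts9, -0.14 to 0.01 for Mmp16, -0.09 to 0.03 for Mmp2 and -0.16 to 0.03 for Timp3 at 8 h.

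With the replicate number as a block, 7 members were called at 4 h, 7 at 8 h (6 of them the same), 0 for the difference of effects, 0 between the times after PBS and 6 after CGRP. Over all genes the block gave 2139, 1078, 154, 68 and 932 calls. Same-numbered libraries did not deviate together, which cannot show whether equal numbers share a day or a sort. Besides Timp2 at 8 h, Adamts9 lost its call for time after CGRP (adjusted p = 0.0508). Adamts9, with 10 to 83 reads a library, rests on few reads, and depth limits what can be detected in such genes. Reads are PCR copies without molecular identifiers.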
